A study of Mus musculus with 6 samples.

Results

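The T cell receptor beta, gamma and delta gene segments were followed through mouse RNA-seq libraries of regulatory T (Treg) cells labelled as lacking or carrying TNFR2. Members were all rows whose Ensembl identifier maps to a symbol beginning with Trbv, Trbd, Trbj, Trgv, Trgj, Trgc, Trdv, Trdd or Trdj. They numbered 65 of the 32377 genes in the table of read counts. The beta chain gave 28 V, 2 D and 14 J segments, the gamma chain 7 V, 3 J and 4 constant genes, and the delta chain 4 V, 1 D and 2 J segments. Of the gamma genes, 10 are listed under older Tcrg names and were matched to Trgv and Trgc through RefSeq synonyms. Another 11 segments of the gene name table that fit the rule matched no row and were not analysed here. The study set TNFR2-deficient Treg (3 libraries) against TNFR2 positive Treg (3 libraries). TNFR2 is the product of Tnfrsf1b and binds tumour necrosis factor; Treg cells are known to carry much of it. The labels give no tissue, sort gate, strain, age or treatment, and they do not say whether the deficiency came from an allele, a Cre driver or a gate. They do not say either that libraries came from separate animals, so a p-value here weighs a difference against library-to-library spread that could be technical.

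A T cell receptor gene is assembled in the thymus by cutting and joining V, D and J segments, a process run by the RAG recombinase. The beta locus carries an array of V segments, then a first cluster (Trbd1, the Trbj1 segments and Trbc1) and a second cluster (Trbd2, the Trbj2 segments and Trbc2), with Trbv31 inverted at its end. A finished beta transcript keeps a single V, D and J, spliced to a constant region. Segments that have not been joined can also be transcribed, and such germline transcripts are known from developing T cells. Gamma and delta chains form the receptor of the gamma delta lineage, and their loci are rearranged in thymocytes before the alpha chain.

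Library totals ran from 19296082 to 24038118 counts, so that a floor of 3 counts was 0.125 to 0.154 CPM (counts scaled to a library of 1000000 with TMM factors, here and below). Tnfrsf1b ran from 7.32 to 8.30 CPM in the TNFR2-deficient libraries and from 80.2 to 84.6 CPM in the TNFR2-positive ones (edgeR adjusted p = 1.7e-11), the direction of the labels. Markers that define Treg cells were low in the TNFR2-deficient group, where 12 of 12 fell and their summed level was 43.7 to 50.04 CPM against 647.5 to 711.1 CPM. Markers of double-positive thymocytes, cells that carry CD4 and CD8 while they rearrange their receptor, rose in 14 of 14 cases, to a sum of 5045 to 5191 CPM against 739.9 to 757.9 CPM. B cell markers were abundant in both groups, at sums of 8672 to 9078 and 7467 to 7516 CPM, with 5 of 10 higher and 3 lower. All 9 erythroid markers with a row were higher, at sums of 18078 to 20624 against 4238 to 7013 CPM. Of 10 myeloid markers 7 were higher and 0 lower, at 972.7 to 1056 against 486.5 to 543.7 CPM. Over all 17022 genes tested, 69.3% passed the threshold used here and below (edgeR adjusted p below 0.05), 35.1% higher and 34.2% lower. None of these marker lists had a gene at 0 throughout a group, and their part in the results below was not tested. TNFR2-positive library 1 stood apart, with a chi-square per gene of 15.3 and 20.5 against its fellow libraries, which gave 2.54 between themselves.

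Because the beta D and J segments moved in different directions, their germline sequences are given first. They were taken from the GENCODE M21 transcripts (GRCm38), not from the libraries, and are written 5′ to 3′ with the letters that match TTNGGNNNNGGN in capitals, the stretch that encodes the conserved Phe-Gly-X-Gly motif of a J segment. The motif was searched on both strands. It was found in 11 of 14 Trbj segments on the coding strand and in 0 on the other, and was not found in Trbj1-6, Trbj1-7 and Trbj2-6. It also stood in 2 of 2 Trdj and 0 of 3 Trgj segments. Both D segments and the whole first J cluster are shown, followed by the 3 members of the second cluster that rose:
Trbd1: gggacagggggc
Trbj1-1: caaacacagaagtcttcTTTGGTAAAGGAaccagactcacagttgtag
Trbj1-2: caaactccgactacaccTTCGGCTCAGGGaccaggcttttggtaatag
Trbj1-3: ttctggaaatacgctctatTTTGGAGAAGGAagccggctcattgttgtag
Trbj1-4: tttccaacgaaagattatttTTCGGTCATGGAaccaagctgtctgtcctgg
Trbj1-5: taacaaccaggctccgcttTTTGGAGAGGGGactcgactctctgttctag
Trbj1-6: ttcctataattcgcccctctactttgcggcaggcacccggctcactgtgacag
Trbj1-7: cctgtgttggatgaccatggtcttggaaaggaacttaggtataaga
Trbd2: gggactgggggggc
Trbj2-1: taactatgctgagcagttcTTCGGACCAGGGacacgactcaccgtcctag
Trbj2-3: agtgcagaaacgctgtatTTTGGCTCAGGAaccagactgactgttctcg
Trbj2-6: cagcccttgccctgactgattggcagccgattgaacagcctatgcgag

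In the transcripts used, Trbd1 and Trbd2 are 12 and 14 bases long and the Trbj segments 46 to 53 bases. Trbj1-3 has 54 annotated exonic bases, of which its transcript holds 50. A count on such a segment is therefore a count of reads that overlap that place, and levels are not compared per length between D, J and V segments.

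The V segments are shown by their last 45 bases, the end that is joined. TGTGCN is in capitals, where TGT is in most V segments the codon of the conserved cysteine that opens the joined region. The run was found in this window in 23 of 28 Trbv segments on the coding strand and in 0 on the other. The examples are the segments with the highest levels, together with Trbv13-3, which is close in sequence to the other Trbv13 segments and had a smaller fold change:
Trbv3: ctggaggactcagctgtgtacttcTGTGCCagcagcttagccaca
Trbv12-1: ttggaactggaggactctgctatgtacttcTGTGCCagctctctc
Trbv12-2: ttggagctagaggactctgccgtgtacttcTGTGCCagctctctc
Trbv13-1: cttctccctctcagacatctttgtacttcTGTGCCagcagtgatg
Trbv13-2: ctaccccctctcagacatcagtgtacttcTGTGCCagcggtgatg
Trbv13-3: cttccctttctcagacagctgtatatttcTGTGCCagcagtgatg
Trbv15: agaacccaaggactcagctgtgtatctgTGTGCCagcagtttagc
The Trbv13 transcripts are 86.1% to 90.6% identical over the aligned bases and Trbv12-1 and Trbv12-2 are 88.3% identical, so that reads could be shared among them. How the counting treated such reads was not given in the sources used here.

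Across the members, beta V segments were higher in the TNFR2-deficient libraries, 5 J segments of the first beta cluster were lower, and the gamma constant genes were modestly higher. Of the 65 members 44 passed the filter on low counts. At an adjusted p below 0.05 (edgeR's quasi-likelihood test, Benjamini-Hochberg adjustment) 30 of these were higher with TNFR2 deficiency and 5 were lower. Without TNFR2-positive library 1 the counts were 29 and 5. Over all 17022 genes tested, 69.3% were called, 35.1% higher and 34.2% lower. The members' median log2 fold change (log2FC, TNFR2-deficient over TNFR2-positive) was 0.89, against 0.04 over all genes tested. Of the 44, 5 reached the filter's level in every TNFR2-deficient library but not in every TNFR2-positive one, and 4 the reverse. These 9 entered the test through the group in which they were high, so that the filter favoured a difference. Without these 9, 25 of 35 tested members were higher and 1, Trbj1-3, was lower. Most members are short, though Trbv2, Trbv19 and the Trgc genes have more than 500 exonic bases. For comparison, 912 other tested genes of at most 500 exonic bases, antigen receptor segments left out, had a median log2FC of 0.35. Of these, 357 were higher and 156 lower. In bulk libraries like these, fewer cells of a type and less RNA per cell cannot be told apart.

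**Figure D1:**
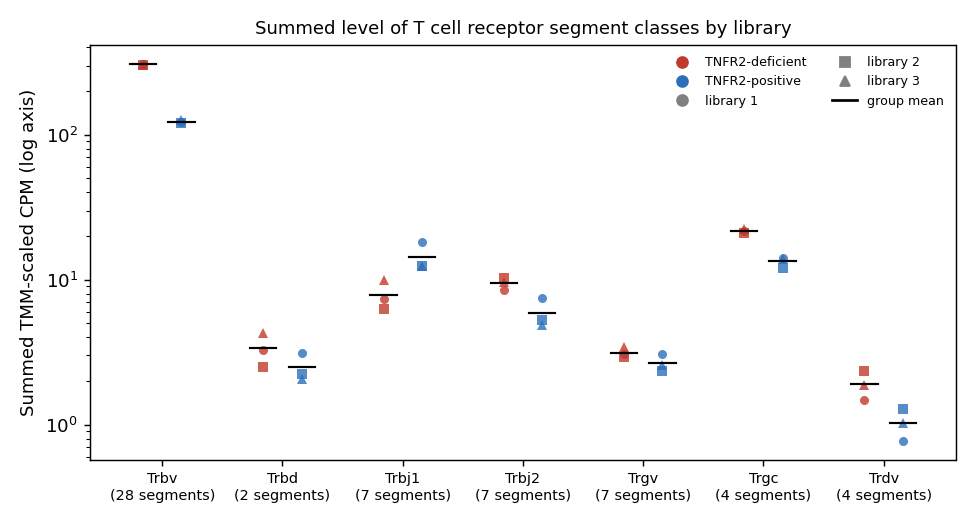
Summed TMM-scaled CPM (log axis) of segment classes in each of the 6 libraries, with the beta J segments split by cluster; symbols mark the library, colours the group and bars the group mean. The Trbv sums of 302.7 to 310.0 CPM in the TNFR2-deficient libraries lie above those of 121.3 to 126.1 CPM in the TNFR2-positive ones, while the Trbj1 sums are lower and the Trbj2 sums higher.

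Beta chain V segments made up most of the counts on members. Their sum was 310.0, 302.7 and 303.1 CPM in TNFR2-deficient libraries 1 to 3, against 122.6, 121.3 and 126.1 CPM in TNFR2-positive libraries 1 to 3, a ratio of 2.48 (2.46 without TNFR2-positive library 1). The groups did not overlap, and libraries of a group lay close together. Of 28 Trbv segments 21 were tested, and 19 of these rose and 0 fell. Over all genes tested 35.1% were higher and 34.2% lower. Of the 19, Trbv24 passed the filter through the TNFR2-deficient libraries alone. The called members lay between a log2FC of 0.62 for Trbv3 and 1.75 for Trbv23.

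Trbv13-2, a V segment known to be frequent in mouse beta chain repertoires, had the highest level. It stood at 49.0, 44.8 and 43.9 CPM in the TNFR2-deficient and at 14.5, 14.0 and 14.7 CPM in the TNFR2-positive libraries (log2FC = 1.67, SE 0.0721, adjusted p = 4.04e-09). The 3 tested segments before it along the locus had log2FC between 1.53 and 1.64, while the next tested one after it, Trbv13-3, had a log2FC of 0.79. Trbv12-2 was at 25.1 ± 1.03 against 8.38 ± 0.718 CPM (SD, n = 3 per group; log2FC = 1.58). Trbv12-1 stood at 19.9 ± 1.80 against 6.90 ± 1.28 CPM (log2FC = 1.53). Trbv13-1 stood at 20.3 ± 0.608 against 6.49 ± 0.457 CPM (log2FC = 1.64). Trbv15, farther along, was at 20.6 ± 0.761 against 7.87 ± 1.31 CPM (log2FC = 1.39). In these 5 segments the lowest TNFR2-deficient library was above the highest TNFR2-positive one, as in 74.5% of all tested genes. Trbv31, the inverted segment past the second constant region, was higher as well, at 12.3 ± 0.606 against 4.08 ± 0.705 CPM (log2FC = 1.59, adjusted p = 8.92e-07).

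**Figure D2:**
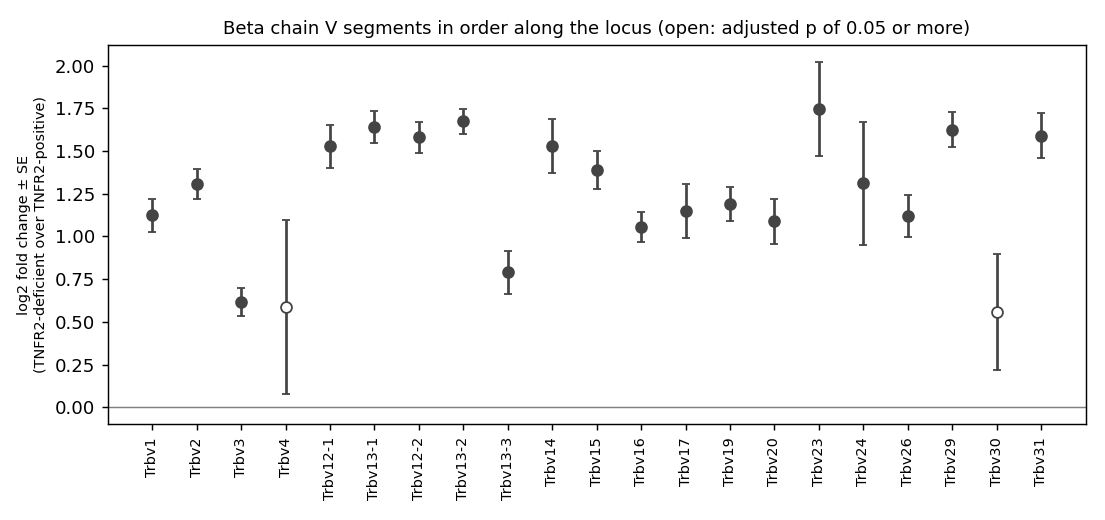
Log2 fold change with its standard error for the 21 beta V segments that passed the filter, in their order along the locus; filled points passed the adjusted p threshold and open points did not. All 21 lie above 0, with Trbv3, Trbv13-3, Trbv4 and Trbv30 the lowest, between 0.56 and 0.79.

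Trbv3 and Trbv13-3 changed least among the called V segments. Trbv3 reached 22.7, 20.4 and 21.04 CPM in the TNFR2-deficient and at 14.4, 13.7 and 13.8 CPM in the TNFR2-positive libraries (log2FC = 0.62, SE 0.0800, adjusted p = 3.14e-05). Trbv13-3 was at 11.9, 12.7 and 9.73 against 6.04, 6.80 and 7.02 CPM (log2FC = 0.79, SE 0.126, adjusted p = 0.000151). Both were thus higher without overlap, though by less than Trbv13-1 and Trbv13-2; the difference between segments was not tested. Trbv30 (1.06 ± 0.431 against 0.717 ± 0.0317 CPM) and Trbv4 (0.523 ± 0.233 against 0.351 ± 0.200 CPM) did not pass the threshold (log2FC = 0.56 and 0.59, adjusted p = 0.163 and 0.32). Their groups overlapped. Trbv4 shares its place and strand with the gene model 5830405F06Rik, so that reads could be assigned to either.

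Of the 6 V pseudogenes with a row, the annotated pseudogene Trbv24 alone was tested. Its levels were 1.25, 1.62 and 1.83 CPM against 0.343, 1.02 and 0.562 CPM (log2FC = 1.31, adjusted p = 0.00648), and the pseudogenes together held 0.647% ± 0.162 and 0.618% ± 0.196 of the Trbv counts in the 2 groups. That share overlapped between the groups. Trbv6, another pseudogene, had 1, 3 and 7 counts in the TNFR2-deficient and 0 in each TNFR2-positive library. The 7 Trbv segments that were not tested had 1 to 29 counts each over all 6 libraries.

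The makeup of the V counts was described apart from their total. The effective number of Trbv segments, the exponential of the Shannon entropy, would equal the number of segments if all were even. It was 16.2, 16.9 and 16.8 in the TNFR2-deficient and 16.7, 17.0 and 16.9 in the TNFR2-positive libraries. These ranges overlapped. Trbv13-2 held 15.8%, 14.8% and 14.5% of the Trbv counts in the TNFR2-deficient libraries and 11.8%, 11.5% and 11.6% in the TNFR2-positive ones. Trbv3 went the other way, from 11.7%, 11.3% and 10.9% in the TNFR2-positive to 7.32%, 6.72% and 6.94% in the TNFR2-deficient libraries. It was thus close to Trbv13-2 in share in the TNFR2-positive group and well below it in the TNFR2-deficient group. Among segments with at least 50 counts, the share ratio was highest for Trbv23 at 1.37, Trbv13-2 at 1.29 and Trbv13-1 at 1.26. It was lowest for Trbv30 at 0.60, Trbv4 at 0.61 and Trbv3 at 0.62. Per kilobase of annotated exon, Trbv13-2 stood at 135.0 CPM in the TNFR2-deficient group, ahead of Trbv12-2 at 65.3, Trbv15 at 55.7, Trbv13-1 at 55.4, Trbv12-1 at 51.2 and Trbv3 at 47.0 CPM. In the TNFR2-positive group the order began with Trbv13-2 at 42.3 CPM per kilobase and Trbv3 at 30.6, followed by Trbv12-2 at 21.8 and Trbv15 at 21.3. Both groups thus shared the leading segment, and Trbv3 took different places behind it.

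**Figure D3:**
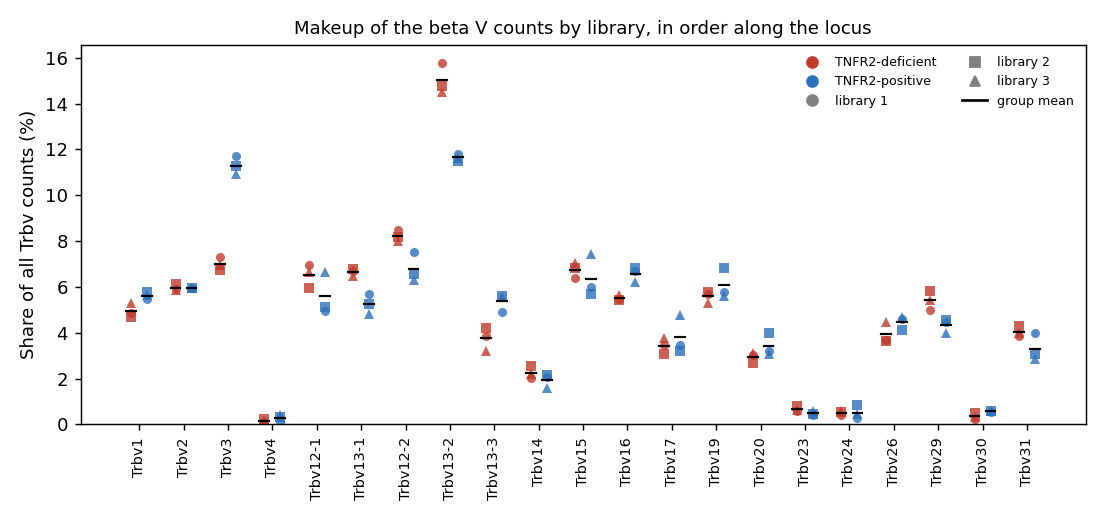
Share of each tested V segment in all Trbv counts of a library (percent, linear axis from 0), in order along the locus; symbols mark the library, colours the group and bars the group mean. Trbv13-2 is higher in the TNFR2-deficient libraries (14.5% to 15.8% against 11.5% to 11.8%) and Trbv3 lower (6.72% to 7.32% against 10.9% to 11.7%).

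The constant regions of the beta chain, which are not members, rose by more than the V segments. Trbc1 was at 583.2 ± 25.8 against 142.2 ± 12.8 CPM and Trbc2 at 767.1 ± 17.0 against 207.1 ± 10.7 CPM (log2FC = 2.04 and 1.89, adjusted p = 1.15e-09 and 4.26e-10). Their near-identical sequences can share reads. For every 100 counts on Trbc1 and Trbc2 there were 23.8, 21.9 and 22.2 counts on Trbv segments in the TNFR2-deficient libraries and 37.8, 34.4 and 34.0 in the TNFR2-positive ones. The groups did not overlap, so the beta V counts were fewer per constant region count in the TNFR2-deficient libraries. The corresponding Trbj counts were 1.21, 1.2 and 1.44 against 7.91, 5.03 and 4.68, with TNFR2-positive library 1 the highest.

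The beta D segments differed from each other. Trbd1 had levels of 1.77, 1.81 and 2.04 CPM in the TNFR2-deficient and of 2.83, 2.00 and 1.78 CPM in the TNFR2-positive libraries, which overlapped (log2FC = -0.24, SE 0.227, adjusted p = 0.364). Trbd2, the D segment of the second cluster, was at 1.51, 0.677 and 2.25 against 0.300, 0.256 and 0.281 CPM (log2FC = 2.39, SE 0.468, adjusted p = 0.000697). Its TNFR2-deficient libraries differed widely and all lay above the TNFR2-positive ones. It passed the filter through the TNFR2-deficient libraries alone, as did Trbv24 and Trbj2-6. The ratio of its counts, 104 against 18, was 5.35 with an exact 95% binomial interval of 3.23 to 9.39, which covers counting error alone.

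Beta J segments split by cluster and by place. All 7 Trbj1 segments were tested, of which 5 fell, 1 rose and 1 did not pass, while of the 6 tested Trbj2 segments 3 rose, 0 fell and 3 did not pass. Of the 13 tested Trbj segments 69.2% were called, close to the 69.3% over all genes tested. By cluster the called share was 85.7% for Trbj1 and 50% for Trbj2. The Trbj1 sum was 7.31, 6.32 and 9.94 CPM in the TNFR2-deficient and 18.2, 12.5 and 12.5 CPM in the TNFR2-positive libraries. The Trbj2 sum was 8.48, 10.3 and 9.65 against 7.46, 5.27 and 4.87 CPM. Neither sum overlapped between groups, as in 74.5% of single genes tested, and the sums differed in opposite directions. The ratios were 0.546 and 1.61, and without TNFR2-positive library 1 they were 0.627 and 1.86. Over all Trbj segments together the sums were 15.8 to 19.6 against 17.4 to 25.6 CPM and did overlap. The first cluster held 46.3%, 38.0% and 50.7% of the Trbj counts in the TNFR2-deficient libraries and 70.9%, 70.3% and 72.0% in the TNFR2-positive ones.

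Within the first cluster the segments nearest Trbd1 were not called lower. Trbj1-1 was at 1.90, 0.812 and 0.707 against 1.5, 1.07 and 1.03 CPM, with overlap (log2FC = -0.08, adjusted p = 0.856). Trbj1-2, the J segment with the highest CPM in the TNFR2-deficient group though not in the TNFR2-positive one, was at 3.20, 2.93 and 5.86 against 2.36, 2.71 and 2.39 CPM (log2FC = 0.69, SE 0.256, adjusted p = 0.0294). TNFR2-deficient library 3 was far above the others, and without it the call of Trbj1-2 was lost (log2FC = 0.30, adjusted p = 0.226). The call was also lost with DESeq2, with limma-voom and without TNFR2-positive replicate 3, where the adjusted p lay from 0.000548 to 0.226 across alternatives.

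The 5 segments from Trbj1-3 to Trbj1-7, grouped after their values were seen, all fell. Trbj1-3 had levels of 0.649, 0.993 and 1.70 CPM in the TNFR2-deficient and of 3.56, 2.61 and 2.15 CPM in the TNFR2-positive libraries (log2FC = -1.31, SE 0.320, adjusted p = 0.00317). Trbj1-4 was at 0.216, 0.677 and 0.457 against 2.66, 1.94 and 1.69 CPM (log2FC = -2.22, SE 0.362, adjusted p = 0.00018). Each of the 3 TNFR2-positive libraries was above each TNFR2-deficient one in both, as in the segments that follow. Trbj1-5 was at 0.476, 0.226 and 0.582 against 3.21, 1.94 and 2.90 CPM (log2FC = -2.63, SE 0.334, adjusted p = 2.64e-05). Trbj1-6 was at 0.778, 0.542 and 0.416 against 2.53, 1.02 and 1.40 CPM (log2FC = -1.52, SE 0.387, adjusted p = 0.00399). TNFR2-positive library 1 was the highest for both. Trbj1-7, which lacks the Phe-Gly motif printed above, fell furthest, from 2.36, 1.18 and 0.936 to 0.0865, 0.135 and 0.208 CPM (log2FC = -3.34, SE 0.503, adjusted p = 9.93e-05). With 10 counts in the TNFR2-deficient group against 98, it was 10.6-fold lower, with an exact 95% binomial interval of 5.51 to 22.7 that covers counting error alone. Trbj1-4, Trbj1-5, Trbj1-6 and Trbj1-7 passed the filter through the TNFR2-positive libraries alone, so that of the 5 lower segments Trbj1-3 alone did not enter the test that way. Without TNFR2-positive library 1 the log2FC were -1.08, -2.01, -2.48, -1.07 and -2.83 from Trbj1-3 to Trbj1-7. The 5 segments together held 14.0%, 15.5% and 17.2% of the Trbj counts in the TNFR2-deficient and 55.9%, 49.0% and 52.3% in the TNFR2-positive libraries.

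**Figure D4:**
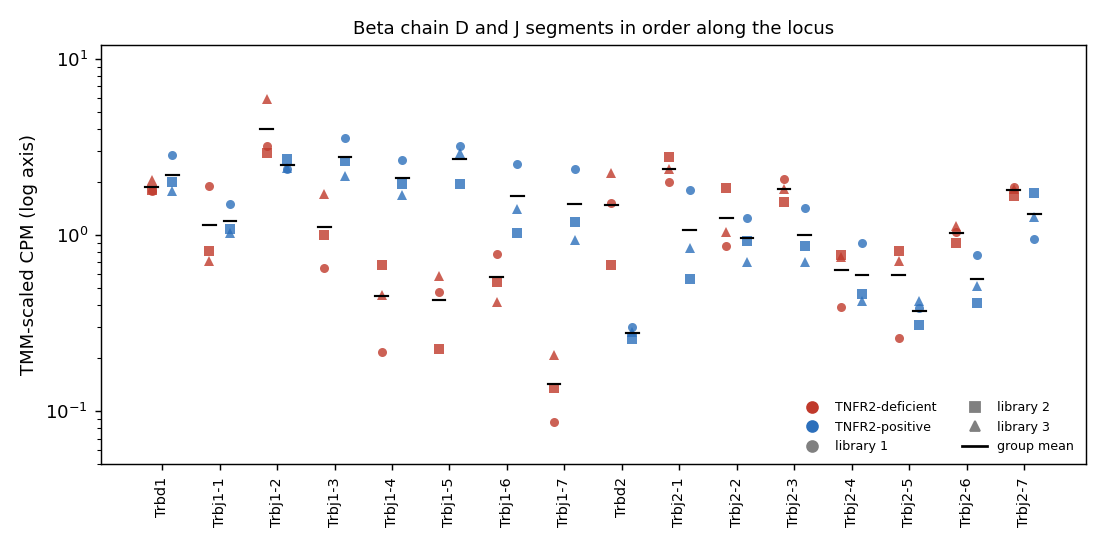
TMM-scaled CPM (log axis) of the beta D and J segments in each library, in order along the locus; symbols mark the library, colours the group and bars the group mean. From Trbj1-3 to Trbj1-7 the TNFR2-positive libraries lie above the TNFR2-deficient ones, and at Trbd2 and Trbj2-1 the order is turned.

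In the second cluster Trbj2-1 rose from 1.80, 0.563 and 0.843 CPM in the TNFR2-positive to 1.99, 2.75 and 2.37 CPM with TNFR2 deficiency (log2FC = 1.11, SE 0.341, adjusted p = 0.0118). TNFR2-positive library 1 came close to the TNFR2-deficient libraries, and without it the log2FC was 1.73. Trbj2-3 was at 2.08, 1.53 and 1.83 against 1.41, 0.870 and 0.702 CPM (log2FC = 0.85, adjusted p = 0.021), and the pseudogene Trbj2-6 at 1.04, 0.903 and 1.12 against 0.771, 0.409 and 0.515 CPM (log2FC = 0.83, adjusted p = 0.0354). Their groups did not overlap, though both calls were lost in some alternatives. For Trbj2-3 these were DESeq2 and leaving out TNFR2-deficient replicate 1 or TNFR2-positive replicate 2 or 3, with adjusted p from 0.0025 to 0.0822. The Trbj2-6 call was lost with DESeq2, with no filter on low counts and without each library in turn other than TNFR2-positive library 1, with adjusted p from 0.0179 to 0.159. Trbj2-7, the closest to Trbc2, was at 1.86, 1.67 and 1.83 against 0.943, 1.74 and 1.26 CPM and did not pass (log2FC = 0.45, adjusted p = 0.137). Without TNFR2-positive replicate 2 it did pass (log2FC = 0.70, adjusted p = 0.0485), with adjusted p up to 0.432 in the other alternatives. Trbj2-2 and Trbj2-4 had log2FC of 0.37 and 0.07 (adjusted p = 0.358 and 0.88), and Trbj2-5, with 65 counts in all, was not tested.

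In the gamma locus the constant genes carried most of the counts. Their sum was 21.7, 20.9 and 22.5 CPM in the TNFR2-deficient and 14.1, 12.1 and 14.0 CPM in the TNFR2-positive libraries, a ratio of 1.62 without overlap, and all 3 that were tested rose. Over all genes tested 35.1% were higher. Trgc2 was at 8.04, 8.44 and 8.98 against 4.71, 4.25 and 4.40 CPM (log2FC = 0.93, SE 0.117, adjusted p = 2.55e-05), and Trgc1 at 7.35, 5.96 and 7.07 against 4.63, 3.84 and 3.98 CPM (log2FC = 0.71, SE 0.139, adjusted p = 0.000715). Both were higher in all 3 TNFR2-deficient libraries. Trgc1, Trgc2 and Trgc3 are 96.1% to 97.3% identical in sequence, so that their single values are uncertain where reads were split among them. The sum of these 3 was 15.5 ± 0.826 against 8.70 ± 0.785 CPM. Trgc4, which is 77.4% identical to Trgc1, was at 6.14, 6.32 and 6.24 against 4.46, 3.94 and 5.57 CPM (log2FC = 0.42, adjusted p = 0.0215). This call was lost with DESeq2, without any of the TNFR2-deficient replicates and without TNFR2-positive replicate 2, with adjusted p from 0.00453 to 0.0844. Trgc3 had 12 and 7 counts in the groups and was not tested.

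Gamma V segments were scarce. Trgv2 was at 1.56, 1.49 and 1.33 against 0.943, 0.665 and 0.936 CPM (log2FC = 0.77, adjusted p = 0.0213). Its groups did not overlap, but the call was lost with DESeq2 and without TNFR2-deficient replicate 1 or 2 or TNFR2-positive replicate 2, with adjusted p from 0.0154 to 0.107. Trgv1, whose transcript is 95.5% identical to that of Trgv2, was at 0.735, 0.587 and 0.707 against 0.986, 0.870 and 0.749 CPM and did not pass (log2FC = -0.36, adjusted p = 0.291). Trgv4 did not pass either (log2FC = 0.19, adjusted p = 0.616). The Trgv sum was 2.93 to 3.41 CPM against 2.35 to 3.09 CPM, so that the groups overlapped while the constant genes did not. For every 100 Trgc counts there were 14.1, 14.0 and 15.2 Trgv counts in the TNFR2-deficient and 22.0, 19.5 and 18.5 in the TNFR2-positive libraries. Trgv3, Trgv5, Trgv6 and Trgv7 had 5 to 14 counts each in all libraries together and the 3 Trgj segments 13 to 29, and these 7 were not tested.

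Delta V segments were near the limit of detection. Trdv1 was at 0.692, 0.857 and 0.748 against 0.0857, 0.460 and 0.328 CPM (log2FC = 1.42, SE 0.453, adjusted p = 0.0147) and Trdv5 at 0.519, 1.22 and 0.915 against 0.343, 0.358 and 0.421 CPM (log2FC = 1.23, SE 0.391, adjusted p = 0.0148). Both rose without overlap, and both passed the filter through the TNFR2-deficient libraries alone. The Trdv1 call was lost with DESeq2 and without TNFR2-deficient replicate 2 or TNFR2-positive replicate 1 (adjusted p from 0.00681 to 0.0642 over the alternatives), where leaving out the latter gave a log2FC of 0.95. The Trdv5 call was lost with DESeq2 and without TNFR2-deficient replicate 2 (adjusted p from 0.00548 to 0.0854). Trdv5 lies opposite Trdc, the delta constant gene, whose reads cannot be told from its own without strand. Trdc itself rose from 13.9 ± 1.33 to 29.0 ± 1.62 CPM (log2FC = 1.06, adjusted p = 9.92e-07). Trdv4 had 16 against 22 counts and Trdv2-1 had 1 count in each group. Trdd2 had 1 count in all, and Trdj2 had 14 against 6. Trdj1 had 0, 1 and 2 counts in the TNFR2-deficient and 12, 5 and 3 in the TNFR2-positive libraries, the most in TNFR2-positive library 1. The ratio of its counts, 3 against 20, was 0.139, with an exact 95% binomial interval of 0.0264 to 0.469 that covers counting error alone. These 5 delta segments were not tested.

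Genes that act on or with the segments were taken from lists. Of 9 genes of the constant regions, pre-T cell receptor and CD3 complex all 9 rose, with a median log2FC of 1.06. Trac, the alpha constant region, rose less than the beta ones, from 141.1 ± 1.71 to 208.6 ± 3.95 CPM (log2FC = 0.56, adjusted p = 3.24e-06). Of 16 genes of V(D)J recombination and end joining 10 rose and 4 fell (median log2FC = 0.46). Atm, Prkdc, Dclre1c and Xrcc5 fell (log2FC = -3.91, -1.51, -0.52 and -0.19). Of the same list Xrcc6, Lig4, Paxx, Nhej1 and Xrcc4 rose (log2FC = 1.99, 1.36, 0.89, 0.50 and 0.42). The recombinase gene Rag1 (log2FC = 8.11) and Dntt, whose enzyme adds bases at the joins (log2FC = 7.89), had the smallest adjusted p, 1.78e-13 each. Of 14 genes of the gamma delta program 6 rose and 5 fell (median log2FC = -0.02). Sox4, also expressed by thymocytes, rose (log2FC = 2.1, adjusted p = 8.29e-10). Sox13, Id3, Il17rb and Blk, named after their values were seen, rose too (log2FC = 2.11, 1.30, 0.59 and 0.17). Maf and Tmem176a, named after their values were seen, fell (log2FC = -0.44 and -0.50, adjusted p = 0.000141 and 0.000972). Kcnk1, Il23r and Zbtb16 fell further (log2FC = -3.88, -2.96 and -2.05), though on few counts. They had 3, 13 and 17 counts in the TNFR2-deficient group against 46, 96 and 67 in the TNFR2-positive group. The 6 and 5 of 14 lie near the shares over all genes tested (35.1% higher and 34.2% lower).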

How the data were processed

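The authors deposited whole-number read counts per Ensembl gene without normalization. Per the labels' protocols, libraries came from oligo-dT captured mRNA and were PCR-amplified; molecular identifiers are not mentioned, so intervals and floors cover counting error only. HISAT2 2.1.0 and GRCm39 are named in the submitters' processing notes. The counting program, its annotation and strand setting, and the treatment of multiply placed reads or of reads across V(D)J joins were not given in the sources used here. Of 32377 identifiers 30529 were matched to a symbol; GENCODE M21 (GRCm38) gave biotypes, lengths, order along a locus and sequences, and no coordinates are printed because the builds differ.

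Genes were filtered with filterByExpr (minimum count 10, here 0.438 CPM), scaled with TMM and tested in R 4.3.3 by edgeR 4.0.16 (glmQLFit, then glmQLFTest), with Benjamini-Hochberg adjustment over 17022 genes. The SE of a log2FC is its size over the square root of F. Sums over segments and shares carry no test. Identities came from global alignments with Biopython 1.88. Alternatives were DESeq2 1.42.0, voom of limma 3.58.1, other scalings and filters, each library left out, and a block for the replicate number. The members and lists were chosen with earlier results of these data known. Named segments were the 6 of each class with the highest mean CPM, members called against their class, the 3 Trbv segments with the highest and lowest share ratio, for each list the 2 genes of smallest adjusted p, and the constant regions; others described were chosen after their values were seen. A gene that this rule names is not reported here.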

Additional observations from a re-analysis of the deposited data

How the results depend on the processing

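Of 35 called segments 28 kept direction and call in every one of the 14 alternatives that gave a value, including all 19 Trbv segments; 7 lost the call in at least 1, and 0 reversed. Of the 9 uncalled segments 1, Trbj2-7, was called in an alternative. DESeq2 called 23 higher and 5 lower, limma-voom 29 and 5. Without a filter 31 were higher and 6 lower, with Trbv5, Trbv6 and Trdj1 among them at 29, 11 and 23 counts in all. Counting members spelled as in the rule alone, an alternative chosen after seeing the data, gave 27 and 5. Leaving out each library gave 25 to 29 higher and 5 lower. The Trbv ratio of 2.48 was 2.42 with RLE and 2.56 with upper-quartile scaling, beyond the small spread of its libraries, and the Trdv ratio of 1.85 was 2.48 over the members that passed the filter, because Trdv4 is then left out. Without each library the Trbj1 ratio was 0.472 to 0.627 and the Trbj2 ratio 1.49 to 1.86. Some uncalled segments changed sign when a library was left out. The log2FC of Trgv4 ranged from -0.0647 (without TNFR2-deficient replicate 3) to 0.31, and that of Trbj2-2 from -0.0174 (without TNFR2-deficient replicate 2) to 0.62. Trbj1-1 ranged from -0.67 to 0.17, above 0 without TNFR2-deficient replicate 2 (0.10) or 3 (0.17) or TNFR2-positive replicate 1 (0.11). Trbj2-4 ranged from -0.12 to 0.52, below 0 without TNFR2-deficient replicate 2 (-0.08) or 3 (-0.07) or TNFR2-positive replicate 2 (-0.07) or 3 (-0.12). With the replicate number as a block, 30 segments were higher and 5 lower, and it changed no call. Same-numbered libraries deviated from their group means with correlations of 0.0372, 0.0540 and -0.0611, so the numbers were not taken as pairs. Depth limits the gamma and delta segments most. Of the 21 members that were not tested, 7 were Trbv and 1 was a Trbj segment, and the others were gamma or delta genes.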
